A study of Mus with 21 samples.

Results

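Mast cells are tissue-resident immune cells that mature locally in the skin from blood-borne progenitors under the control of the growth factor receptor Kit. They store proteases, histamine and heparin in granules and release them when the high-affinity IgE receptor, or in mouse skin the Mas-related receptor Mrgprb2, is engaged. Connective tissue mast cells, the type that populates the dermis, are known for a set of granule proteases made up of chymases, tryptase and carboxypeptidase A3. The genes described here were 9 listed by symbol: the granule proteases Cma1, Mcpt4, Tpsb2 and Cpa3, the receptors Kit, Fcer1a, Ms4a2 and Mrgprb2, and the histamine-forming enzyme Hdc. All 9 were found among the 18806 genes of the count files, and all 9 passed the filter on low counts.

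The study asked how the pH of a wound dressing affects the action of acidic and basic fibroblast growth factor (aFGF and bFGF) on skin wounds. Female wild-type C57BL/6 mice, 8 weeks old, received full-thickness dorsal wounds of 8 mm that were held open by splints, and wound tissue was taken for bulk RNA-seq on day 4. There were 7 groups of 3 libraries, 21 in all, each library labelled as a biological replicate. Each mouse had a wound on both sides of the back, and whether the libraries of a group came from separate mice is not stated. The control group received no hydrogel. The other 6 groups received a GelMA hydrogel (a light-cured gelatin derivative) adjusted to pH 6.4, 7.4 or 8.4 and loaded with aFGF or bFGF. Groups are named by pH and growth factor, as in 7.4-GelMA/bFGF. No group received a hydrogel without a growth factor, so the gel and the growth factor cannot be told apart in the comparison with control.

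The libraries held 34362558 to 37817833 counts each. In 3 libraries genes of other tissues stood out. Col2a1, a cartilage collagen, reached 195 CPM (counts scaled to library size) in 7.4-GelMA/aFGF replicate 3 and at most 0.965 CPM in the other 20 libraries. Alb, the liver-made serum albumin, reached 138 CPM in 8.4-GelMA/aFGF replicate 2 against at most 14.1 CPM elsewhere. Inha, an ovarian inhibin subunit, reached 160 CPM in 8.4-GelMA/bFGF replicate 2 against at most 3.94 CPM elsewhere. Comparisons were also made without these 3 libraries.

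On a scale corrected for gene length and library size (FPKM), the levels of the mast cell genes spread over several orders of magnitude. Hdc had the highest median over the 21 libraries, 139 FPKM. The proteases followed, with medians of 54.0 FPKM for Mcpt4, 47.3 for Cma1, 35.3 for Tpsb2 and 33.1 for Cpa3. The receptors were lower, with median levels of 7.78 FPKM for Fcer1a (the IgE-binding α chain), 5.92 for Kit, 0.710 for Ms4a2 (the receptor β chain) and 0.426 for Mrgprb2. The lowest pair rested on few reads, 22 to 158 counts a library for Ms4a2 and 7 to 82 for Mrgprb2. Every protease gene had at least 889 counts in every library, so the labelled tissue held mast cell transcripts in each of the 21 samples. In bulk tissue these levels are relative to the whole library. Fewer mast cells, less RNA per mast cell and more RNA from other cells therefore cannot be told apart.

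**Figure D1:**
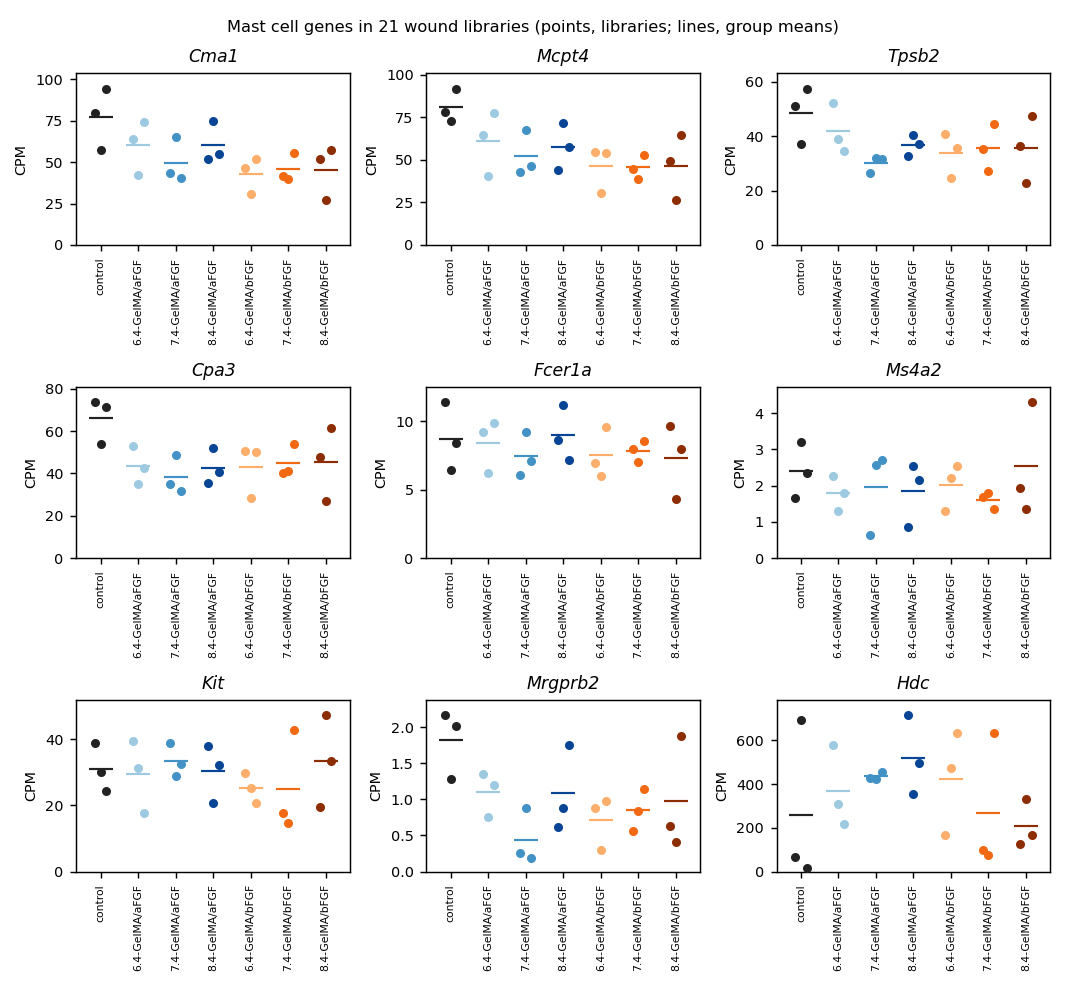
CPM (vertical axis, linear from 0) of the 9 mast cell genes in 7 groups of wounds (horizontal axis). Points are the 3 libraries of a group and lines are the group means; the control means of Cma1, Mcpt4, Tpsb2, Cpa3 and Mrgprb2 lie above all 6 hydrogel means, while the Hdc controls spread from 15.5 to 694 CPM.

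Wounds under the hydrogels had lower mean levels of the 4 granule proteases and of Mrgprb2 than wounds without a hydrogel, in each of the 6 hydrogel groups. None of the 9 genes passed the threshold of the main test, which compared the mean of the 6 hydrogel groups with control over all 21 libraries (edgeR quasi-likelihood test, Benjamini-Hochberg adjusted p below 0.05 and a log2 fold change beyond 0.58 either way). This test called 1 of 15811 genes, or 0.00632%, so that 0 of 9 mast cell genes lies close to the background. DESeq2 called 170 genes and also 0 of the 9. At an unadjusted p below 0.05, 5 of the 9 genes differed, all with lower values under the hydrogels, against 16.7% of all genes in either direction and 10.4% of all genes with lower values. The median log2 fold change of the 9 genes was -0.45, beside -0.02 for all genes tested.

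Mcpt4, the chymase of mouse connective tissue mast cells, had 78.2, 73.0 and 91.8 CPM in the control wounds. Its values were 64.7, 40.4 and 77.7 CPM in 6.4-GelMA/aFGF, 42.9, 67.7 and 46.4 in 7.4-GelMA/aFGF, and 44.3, 71.7 and 57.3 in 8.4-GelMA/aFGF. With bFGF they were 54.5, 30.7 and 54.3 CPM at pH 6.4, 44.9, 38.6 and 53.2 at pH 7.4, and 49.2, 26.1 and 64.6 at pH 8.4. Of the 18 hydrogel libraries 17 lay below the lowest control, and 6.4-GelMA/aFGF replicate 3 alone overlapped the controls. The log2 fold change was -0.66 ± 0.226 (SE), with an edgeR p of 0.00991 and an adjusted p of 0.188. The exact two-sided permutation test over the libraries gave p = 0.00977 for a difference of -0.70 in mean log2 CPM. The exact permutation p-values, here and below, are not adjusted for the number of genes, unlike the edgeR adjusted p.

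Cpa3, the granule carboxypeptidase that trims peptides after the chymases have cut them, had 73.6, 53.9 and 71.2 CPM in the controls. The 18 hydrogel libraries ranged from 27.0 through a median of 41.7 to 61.2 CPM, and 16 of them lay below the lowest control. The log2 fold change was -0.63 ± 0.204 (SE), with an edgeR adjusted p of 0.18 and an exact permutation p of 0.00526. Leaving out any 1 control kept the Cpa3 difference between -0.79 and -0.56 in mean log2 CPM, and the exact permutation p at 0.0316 or below.

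Cma1, a second chymase, which in the mouse has elastase activity, had 79.5, 57.4 and 94.2 CPM in the controls. In the hydrogel wounds it ranged from 27.3 through a median of 51.7 to 74.6 CPM, and 14 of 18 libraries lay below the lowest control. The log2 fold change was -0.62 ± 0.215 (SE), with an edgeR adjusted p of 0.191 and an exact permutation p of 0.0203. Tpsb2, the tryptase that is stored bound to heparin, had 51.0, 36.9 and 57.4 CPM in the controls and 22.9 through 35.6 to 52.2 CPM under the hydrogels, with 11 of 18 libraries below the lowest control. Its log2 fold change was -0.45 ± 0.189 (SE), with an edgeR adjusted p of 0.248 and an exact permutation p of 0.0368.

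Mrgprb2, the receptor through which cationic peptides and many drugs activate mouse skin mast cells without IgE, had 2.16, 1.29 and 2.01 CPM in the controls. Its hydrogel values ranged from 0.188 through a median of 0.860 to 1.88 CPM, and 15 of 18 libraries lay below the lowest control. The values in 7.4-GelMA/aFGF were 0.257, 0.880 and 0.188 CPM, where the lowest library held 7 counts. The log2 fold change against control was -1.14 ± 0.444 (SE), the most negative of the 9, with an edgeR adjusted p of 0.223 and an exact permutation p of 0.0248. Over all genes tested, 12.6% had at least 11 of the 18 hydrogel libraries below the lowest control, as Cma1, Mcpt4, Tpsb2, Cpa3 and Mrgprb2 did. The cutoff of 11 is the count of Tpsb2, the lowest among these genes, so it was fixed by their own values. These genes also varied together across libraries and are not separate instances.

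The IgE receptor chains and Kit had fold changes smaller than their errors. Fcer1a, which binds IgE, had 11.4, 6.44 and 8.41 CPM in the controls and 4.31 through 8.01 to 11.2 CPM under the hydrogels, with a log2 fold change of -0.14 ± 0.223 (SE) and an edgeR adjusted p of 0.776. Ms4a2, which amplifies the signal of that receptor, had 1.66, 3.21 and 2.34 CPM in the controls and 0.627 through 1.87 to 4.30 CPM under the hydrogels, with a log2 fold change of -0.30 ± 0.391 (SE) and an edgeR adjusted p of 0.724. Kit, the receptor for stem cell factor, had 38.7, 30.2 and 24.2 CPM in the controls and 14.6 through 30.4 to 47.2 CPM under the hydrogels. Its log2 fold change was -0.09 ± 0.298 (SE), with an edgeR adjusted p of 0.911. For Kit and Ms4a2 hydrogel values lay both above the highest and below the lowest control, and for Fcer1a 4 of 18 lay below the lowest control and 0 above the highest. Whether their fold changes differ from those of the proteases was not tested.

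**Figure D2:**
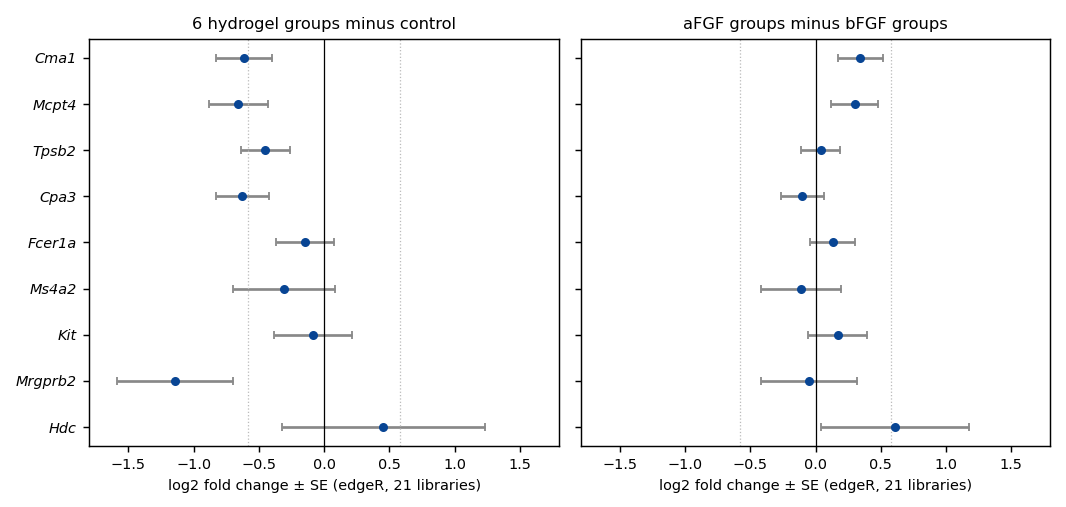
Log2 fold changes with standard errors (horizontal axis) of the 9 mast cell genes (vertical axis) for the 6 hydrogel groups against control (left) and for the 3 aFGF groups against the 3 bFGF groups (right), from the edgeR fit over 21 libraries. Dotted lines mark 0.58 either way; on the left Cma1, Mcpt4, Cpa3 and Mrgprb2 lie beyond it with adjusted p of 0.18 or more, and on the right Hdc alone does, with an adjusted p of 0.521.

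Control replicate 2 stood apart from the other 2 controls in Hdc, which encodes histidine decarboxylase, the enzyme that makes histamine and that neutrophils and other myeloid cells are also known to express. Hdc had 65.8, 694 and 15.5 CPM in the controls. With aFGF it had 577, 310 and 215 CPM at pH 6.4, 429, 423 and 454 at pH 7.4, and 713, 354 and 495 at pH 8.4. With bFGF it had 167, 474 and 632 CPM at pH 6.4, 96.3, 74.6 and 632 at pH 7.4, and 124, 332 and 168 at pH 8.4. The controls thus held both the lowest value and one near the highest, and spanned all 18 hydrogel values but 1. The fitted log2 fold change against control was 0.45 ± 0.776 (SE), with an edgeR adjusted p of 0.801, while the difference in mean log2 CPM was 1.79 with an exact permutation p of 0.0406.

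Both Hdc and Cma1 changed their call when control replicate 2 was left out. The edgeR fit without it called 1189 genes, where the main fit had called 1 of 15811, so calls among the 9 came with many others. It called 2 of the 9 mast cell genes. Hdc had a log2 fold change of 3.12 ± 0.867 (SE) and an adjusted p of 0.0333, and Cma1 -0.79 ± 0.244 (SE) and an adjusted p of 0.0481. Over the 32 fits of this comparison, the adjusted p ranged from 0.0481 to 0.693 for Cma1 and from 0.0333 to 1 for Hdc. Without control replicate 1 the fitted log2 fold change of Hdc was -0.02, and without control replicate 3 it was -0.10. The exact permutation p of Cma1 was 0.0737 without control replicate 1 and 0.137 without control replicate 3, and that of Tpsb2 was 0.105 and 0.2. For Mrgprb2 it was 0.0789 and 0.0737 without control replicates 1 and 3, for Mcpt4 it was 0.0579 without control replicate 3, and for Hdc it was 0.105 and 0.595 without control replicates 1 and 3. With 2 controls against 18 hydrogel libraries, that test can give no p below 0.00526.

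Markers of other cell types moved beside this comparison. The summed level of 6 neutrophil markers was 715, 1174 and 7890 CPM in the controls, with control replicate 2 the highest, and 2909 to 12466 CPM under the hydrogels. All 6 neutrophil markers had higher values under the hydrogels, with a median log2 fold change of 0.93. All 4 adipocyte markers had lower values, with a median of -1.49, and their summed level was 122 to 2006 CPM in the controls and 76.8 to 1157 CPM under the hydrogels. All 5 tested melanocyte markers were lower, with a median of -0.59, and their summed level was 8.46 to 17.3 CPM against 3.59 to 18.2 CPM. Of 3 basophil markers 2 were lower (median -0.31, summed level 5.56 to 11.2 CPM against 2.61 to 13.4 CPM). Of 3 tested eosinophil markers 1 was lower, with a median of 0.21. The summed level of all 4 eosinophil markers was 4.69 to 18.5 CPM in the controls and 3.61 to 29.5 CPM under the hydrogels. Among them Epx, the eosinophil peroxidase, had no counts in most libraries. None of these markers passed the edgeR threshold, and the part of these cells in the mast cell gene values was not tested. Without the 3 libraries that held genes of other tissues, the log2 fold changes were -0.58 for Cma1, -0.63 for Mcpt4, -0.43 for Tpsb2, -0.59 for Cpa3 and 0.40 for Hdc, and Mrgprb2 had an adjusted p of 0.288.

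The values of the 9 genes across libraries were alike for the proteases, Mrgprb2 and Fcer1a, and less so for the rest. The 2 chymases kept nearly the same ratio throughout, since the ratio of Cma1 to Mcpt4 in FPKM stayed between 0.714 and 1.06 with a median of 0.903. Their log2 CPM correlated with r = 0.96 across the 21 libraries, and with r = 0.95 after each group's mean was taken out. These chymases belong to a family of related sequences in 1 gene cluster. How reads shared between relatives were counted is not given in the sources used here, so the separate levels of Cma1 and Mcpt4 are uncertain to that extent. The genes between them in the cluster that were measured, Cma2, Mcpt1 and Mcpt2, had at most 30 counts in any library. Tpsb2 and Cpa3 correlated with r = 0.86, and Cma1 and Cpa3 with r = 0.84. These correlations share library depth and tissue makeup and are given as a description.

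Against the mean of the granule proteases, leaving out the gene itself where it was one of them, Mrgprb2 had r = 0.82 and rho = 0.87 over 21 libraries (permutation test, adjusted p = 0.000165 over 99 relations for r) and Fcer1a r = 0.75 and rho = 0.67 (adjusted p = 0.00141). Ms4a2 had r = 0.38, Kit r = -0.06, and Hdc r = -0.37 with an adjusted p of 0.268 by permutation. Of the 9 genes, Mcpt4 lay closest to the mean standardized pattern of all 9 (r = 0.91), and Kit (r = 0.11) and Hdc (r = -0.11) the farthest from it. Unlike the protease mean, this mean included the gene itself, which raises each r. In CPM, the single library with the lowest values of Cma1, Mcpt4, Tpsb2, Cpa3 and Fcer1a was 8.4-GelMA/bFGF replicate 2, which was also the highest for Kit at 47.2 CPM and the one in which the ovarian gene Inha stood out. In FPKM, 6.4-GelMA/bFGF replicate 2 was lower still in Cma1, Tpsb2 and Cpa3. The next highest Kit value was 42.7 CPM, in 7.4-GelMA/bFGF replicate 3. The part of the other tissue in the Kit value was not tested.

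Hdc levels varied together with neutrophil markers. Across 21 libraries its log2 CPM correlated with the mean log2 CPM of S100a8, S100a9, Retnlg, Csf3r, Cxcr2 and Mmp8 with Pearson's r = 0.89 and Spearman's rho = 0.85. The permutation p was 1e-05 for both, the smallest that 100000 resamples can give, and the adjusted p over 99 relations was 0.000165 for r and 0.000198 for rho. Control replicates 1 and 3 had the lowest values on both measures, and without them r was 0.74. Within the 18 hydrogel libraries r was 0.74, and with the group means taken out of all 21 libraries it was 0.94. The genes most like Hdc in pattern, of 15802 compared, were led in order by Entpd1 (r = 0.97), Trem1 (0.97), Arg2 (0.95), Chst11 (0.95), Samsn1 (0.95), Tarm1 (0.95), Smox (0.95) and Trem3 (0.95). Of these, Trem1 and Trem3 encode receptors known from neutrophils and other myeloid cells. The comparison with Hdc alone was not part of the plan, and which cells the Hdc RNA came from was not tested.

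**Figure D3:**
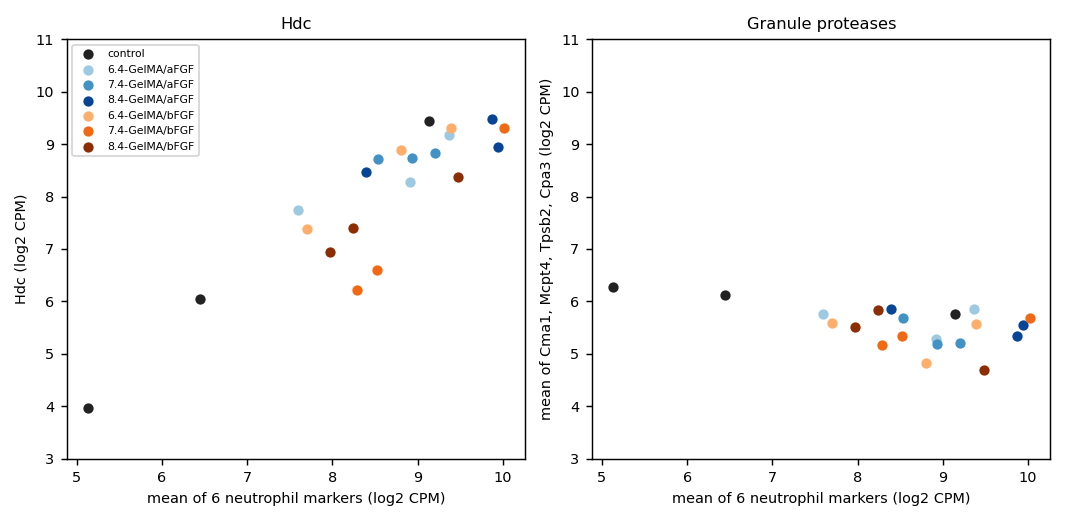
Log2 CPM of Hdc (left) and mean log2 CPM of Cma1, Mcpt4, Tpsb2 and Cpa3 (right) against the mean log2 CPM of 6 neutrophil markers (horizontal axes), 1 point per library, coloured by group. Hdc is higher in libraries with more neutrophil marker RNA (r = 0.89 over 21 libraries, 0.74 without control replicates 1 and 3), while the proteases have r of -0.45 to -0.56 one by one.

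None of the proteases had an adjusted p below 0.05 with the neutrophil score. Their r ranged from -0.45 for Tpsb2 (adjusted p = 0.165 over 99 relations by permutation) to -0.56 for Cpa3 (adjusted p = 0.0546), and without control replicates 1 and 3 they were -0.02 and -0.22. With the melanocyte score, Cma1 had r = 0.69 and rho = 0.75 (permutation p of 0.00062 and 0.00015, adjusted p of 0.00682 and 0.00226) and Mcpt4 had r = 0.72 and rho = 0.76 (permutation p of 0.0003 and 0.00016, adjusted p of 0.00371 and 0.00226). Without the 2 libraries farthest from the median of the Cma1 and Mcpt4 comparisons, 7.4-GelMA/aFGF replicate 2 and 7.4-GelMA/bFGF replicate 3, r was 0.80 and 0.81. Kit, which melanocytes also use, had r = -0.05 with that score. Kit instead had r = -0.63 and rho = -0.54 with the skeletal muscle score (permutation p of 0.0021 and 0.0132), with an adjusted p of 0.0208 for r and 0.0953 for rho, and r = -0.55 without the 2 farthest libraries. Fcer1a had r = 0.59 with the macrophage score (permutation p = 0.00453, adjusted p = 0.0408) and rho = 0.54 (permutation p = 0.0133, adjusted p = 0.0953). That relation rested on few libraries, since r was 0.38 without the 2 farthest and 0.29 without the 3 libraries with genes of other tissues.

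**Figure D4:**
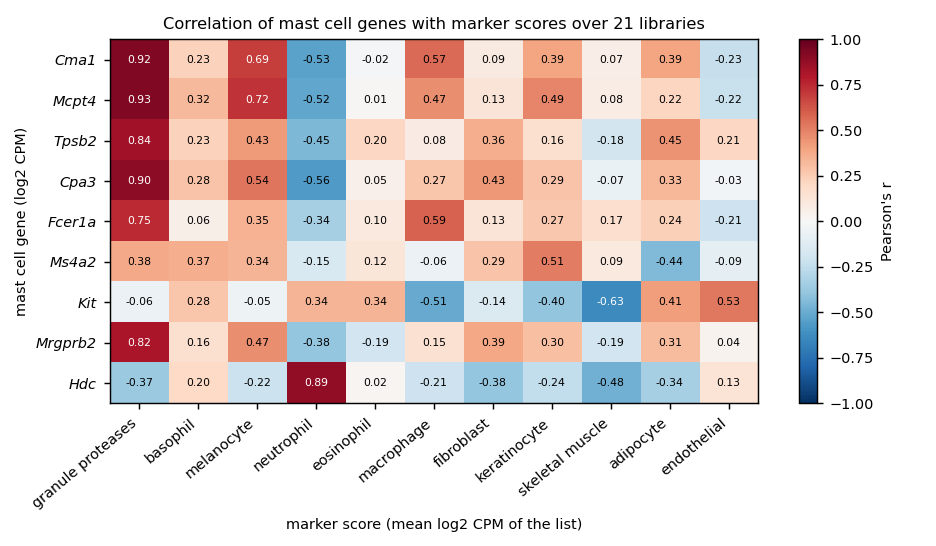
Pearson's r over 21 libraries between the log2 CPM of each mast cell gene (vertical axis) and the mean log2 CPM of marker lists (horizontal axis), with the value printed in each cell and colour from -1 (blue) to 1 (red). The 4 proteases and Mrgprb2 have 0.82 or more with the protease score, from which the gene itself is left out, whereas Hdc has 0.89 with the neutrophil score.

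Beyond the 9 genes themselves, the gene whose pattern was most like their mean was Jchain, the joining chain of polymeric antibodies made by plasma cells, with r = 0.81 over 21 libraries (0.75 with group means taken out). Others among the 10 most alike were Rpl37a (0.73), Cyp2f2 (0.70), Rps28 (0.69), Cldn4 (0.69), Agrp (0.68), Rplp2 (0.68), Rps15 (0.68) and Cntn6 (0.68), of which Rpl37a, Rps28, Rplp2 and Rps15 encode ribosomal proteins. Agrp and Cntn6 had a median of 0.151 and 0.0537 CPM and rest on few reads. This list of 10 shared 4 genes with that from group-centred values and 2 with that without the 3 libraries with genes of other tissues, where Jchain kept the highest r, 0.81. Measured against the 4 proteases alone, a choice made after the data were seen, Jchain was again the most alike (r = 0.84), followed by Cyp2f2 (0.79), Tmem132c (0.78), Asgr2 (0.77) and Higd2a (0.76). The list for the proteases shared 2 of 10 genes with that from group-centred values and 3 of 10 with that without the 3 libraries, where r of Jchain was 0.86.

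Among the 7 groups, the control wounds had the highest mean level of Cma1, Mcpt4, Tpsb2, Cpa3 and Mrgprb2. The control means were 77.0 ± 18.6 CPM for Cma1, 81.0 ± 9.70 for Mcpt4, 48.5 ± 10.5 for Tpsb2, 66.2 ± 10.7 for Cpa3 and 1.82 ± 0.467 for Mrgprb2 (SD, n = 3). The lowest Cma1 mean was 42.9 ± 11.0 CPM in 6.4-GelMA/bFGF, the lowest Mcpt4 mean 45.6 ± 7.29 in 7.4-GelMA/bFGF, and the lowest Tpsb2, Cpa3 and Mrgprb2 means 30.1 ± 3.14, 38.4 ± 9.12 and 0.442 ± 0.381 in 7.4-GelMA/aFGF. For all 9 genes the libraries of every pair of neighbours in the order of group means overlapped, so no neighbouring step in the order exceeded the spread between libraries. Of the 21 pairs of groups, Mcpt4 had 5 without overlap, each of them a hydrogel group below control and every hydrogel group but 6.4-GelMA/aFGF. Cma1 and Cpa3 had 4 such pairs, Tpsb2 and Mrgprb2 3, Hdc 2, and Kit, Ms4a2 and Fcer1a 0. Over the 9 genes this made 21 of 189 pairs, or 11.1%, beside 16.5% of pairs over all genes tested. Of the 21 pairs, 16 were of a hydrogel group with control. The share over all genes was not split into pairs with and without control, so these 16 have no background beside them.

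A test for any difference among the 7 groups called 18 of 15811 genes (0.114%) by edgeR and none of the 9. Their adjusted p ranged from 0.324 for Cma1 to 0.941 for Fcer1a. At an unadjusted p below 0.05 the count was again 0 of 9, against 19.3% of all genes, and DESeq2 called 2050 genes with 0 of the 9 among them.

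Between the growth factors over all 3 pH values, 506 of 15811 genes (3.2%) were called by edgeR and 773 by DESeq2, and none of the 9 mast cell genes by either. None of the 9 had an unadjusted p below 0.05, against 28% of all genes. Cma1 had a mean of 56.8 ± 13.4 CPM (SD, n = 9) under aFGF and 44.6 ± 10.7 CPM under bFGF, with a log2 fold change of 0.34 ± 0.171 (SE) and an edgeR adjusted p of 0.204, the lowest of the 9. Hdc had 441 ± 147 CPM against 300.0 ± 226 CPM, with a log2 fold change of 0.61 ± 0.567 (SE) and an adjusted p of 0.521. The other 7 had log2 fold changes between -0.11 for Ms4a2 and 0.30 for Mcpt4, and the median of the 9 was 0.13, beside -0.00161 for all genes.

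At a single pH, the main test of aFGF against bFGF used the 6 libraries of each pair of groups. In data simulated for another comparison of 6 libraries, given below, edgeR recovered 0 of 197 changes of 2-fold. At pH 6.4 edgeR called 0 of 14994 genes (0%) and DESeq2 118, with 0 mast cell genes in both. At pH 7.4 edgeR called 0 of 15049 genes (0%) and DESeq2 268, again with 0 mast cell genes in both. The 9 genes held no unadjusted p below 0.05 at either pH, against 8.16% and 13% of all genes. At pH 8.4 edgeR called 1 gene (0.00665%) and none of the 9, while 1 of the 9, Hdc, had an unadjusted p below 0.05 against 21.1% of all genes.

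Hdc at pH 8.4 had 713, 354 and 495 CPM with aFGF and 124, 332 and 168 CPM with bFGF, so that the groups did not overlap, with the lowest aFGF library just above the highest bFGF library. Its log2 fold change was 1.32 ± 0.413 (SE), with an edgeR p of 0.0157 and an adjusted p of 0.162. DESeq2 called 955 genes in this comparison, where edgeR had called 1 of 15041. Hdc was among the 955, with a log2 fold change of 1.31 and a DESeq2 adjusted p of 0.0163. Over the 18 fits of this comparison the adjusted p of Hdc ranged from 0.0163 to 0.469. The mean of the neutrophil markers was 7.97, 9.48 and 8.24 log2 CPM with bFGF and 9.87, 8.39 and 9.94 with aFGF, with overlap between the groups, and its part in the Hdc difference was not tested.

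Between pH values with the same growth factor edgeR called no gene in any of 4 comparisons (0%). DESeq2 called 20 genes for pH 6.4 against 7.4 with aFGF, 113 with bFGF, 13 for pH 8.4 against 7.4 with aFGF and 28 with bFGF, with 0 of the 9 in each. At an unadjusted p below 0.05 these comparisons held 4.99%, 8.89%, 3.01% and 5.72% of all genes. Of the mast cell genes, Tpsb2 alone passed it, for pH 6.4 against 7.4 with aFGF. Tpsb2 had 52.2, 38.8 and 34.4 CPM at pH 6.4 and 26.5, 32.1 and 31.7 CPM at pH 7.4, without overlap, with a log2 fold change of 0.47 ± 0.177 (SE), an edgeR p of 0.0348 and an adjusted p of 0.832. Mrgprb2 had the most positive fold change of the 9 in both comparisons with aFGF, 1.31 for pH 6.4 and 1.29 for pH 8.4 against 7.4 on the log2 scale, from 0.257, 0.880 and 0.188 CPM at pH 7.4, and neither passed. The difference between the growth factors in the effect of pH, fitted as an interaction over 21 libraries, called 0 of 15811 genes for either pH by edgeR, and the lowest unadjusted p among the 9 genes was 0.111 for pH 6.4 and 0.248 for pH 8.4. In data simulated for pH 6.4 against 7.4 with aFGF, edgeR recovered 0 of 197 changes of 2-fold and 143 of 200 of 4-fold. DESeq2 recovered 100 of 200 changes of 2-fold there, with 42 false calls. An absence of edgeR calls with 6 libraries therefore says little about changes of 2-fold or less.

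Other genes of mast cell biology were taken as 6 lists with 48 genes, of which 44 were in the files and 38 were tested. The other mast cell proteases were scarce: Tpsg1, a membrane-anchored tryptase, had a median of 0.593 CPM and Ctsg, cathepsin G, 0.354 CPM. Mcpt9 was not in the files, and Tpsab1 was not analysed here. How reads shared between Tpsb2 and Tpsab1 were counted is not known, so the level of Tpsb2 is uncertain to that extent. Of the relatives of Mrgprb2, Mrgprb1 had a median of 4.86 CPM, and its control values of 5.92 to 7.83 CPM lay above a hydrogel mean of 4.10 ± 0.929 CPM with aFGF and 4.70 ± 1.22 CPM with bFGF (SD, n = 9). Its log2 fold change against control was -0.72 ± 0.22 (SE), with an edgeR p of 0.00464 and an adjusted p of 0.164. How reads shared between Mas-related receptors were counted is not known, so the levels of Mrgprb1 and Mrgprb2 are uncertain to that extent.

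None of the 38 tested genes passed the edgeR threshold for the hydrogels against control, and 4 had an unadjusted p below 0.05, all with lower values: Mrgprb1, Lat2, Gata1 and Tslp, named after their values were seen. The share of all genes tested with such a p was 16.7% in either direction and 10.4% with lower values, so 4 of 38 is no more than the background. Tslp, an epithelial cytokine that acts on mast cells and others, had a log2 fold change of -1.71 ± 0.447 (SE) and an adjusted p of 0.122. Lat2, an adaptor of IgE receptor signalling, had -0.59 ± 0.178 (SE) and an adjusted p of 0.16. The most abundant genes of the IgE receptor list, Fcer1g and Lyn, had medians of 261 and 229 CPM, and those of the mediator list, Srgn and Alox5ap, 822 and 272 CPM. Of the ligands Il33 and Kitl, the stem cell factor that binds Kit, had the highest medians, 426 and 47.7 CPM, and of the transcription factors Stat5b and Stat5a, 94.2 and 63.6 CPM.

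Between aFGF and bFGF over all pH values, 5 of the 38 related genes passed, 4 higher and 1 lower under aFGF, beside the 3.2% of all genes. The lower one, Mcpt2, passed the filter on low counts only through libraries of the other groups. Il33, an alarmin released by damaged epithelium and stroma that activates mast cells, had 759 ± 295 CPM (SD, n = 9) under aFGF and 369 ± 164 CPM under bFGF, with a log2 fold change of 1.04 ± 0.324 (SE) and an edgeR adjusted p of 0.0489. Lyn, a kinase that starts IgE receptor signalling and is shared by most myeloid cells, had 294 ± 82.9 CPM against 181 ± 38.5 CPM, with a log2 fold change of 0.69 ± 0.178 (SE) and an adjusted p of 0.0246. Stat5a, a transcription factor downstream of Kit and many cytokines, had 77.0 ± 23.8 CPM against 48.6 ± 12.6 CPM, with a log2 fold change of 0.66 ± 0.178 (SE) and an adjusted p of 0.0292. Tph1, the enzyme that begins serotonin synthesis, had 2.20 to 7.53 CPM against 1.05 to 4.27 CPM, with a log2 fold change of 1.02 ± 0.268 (SE) and an adjusted p of 0.026. In all 4 genes the values under aFGF and bFGF overlapped.

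Mcpt2, a protease of mucosal mast cells, was the gene with lower values under aFGF, with at most 30 counts in any library. Its aFGF values reached at most 0.156 CPM, too low for the aFGF libraries to carry it through the filter on low counts. The call thus rests on a gene kept through groups without aFGF, and is given as a description. It had no counts in 5 of 9 aFGF and 1 of 9 bFGF libraries, and means of 0.0512 CPM and 0.383 CPM. Its edgeR adjusted p was 0.0305, and 3 counts correspond to 0.0793 to 0.0873 CPM in these libraries.

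These 5 calls changed with the libraries and settings used. Leaving out each of the 21 libraries in turn, Lyn kept its call in 16 fits, Tph1 and Mcpt2 in 13, Stat5a in 11 and Il33 in 8. The highest adjusted p was 0.0559 for Lyn and 0.0664 for Stat5a, both without 6.4-GelMA/bFGF replicate 1. It was 0.0545 for Tph1 without 8.4-GelMA/aFGF replicate 2, 0.103 for Il33 without 6.4-GelMA/aFGF replicate 3 and 0.0669 for Mcpt2 without 8.4-GelMA/bFGF replicate 3. Without the 3 libraries that held genes of other tissues, Stat5a alone kept its call (adjusted p = 0.0442). With a replicate block Mcpt2 and Il33 lost their calls (adjusted p of 0.0558 and 0.0703), and Il33 also lost it in edgeR with RLE scaling (0.0508) and without a filter on low counts (0.0590).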

How the data were processed

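RNA-seq was made from wounds in 7 groups of 3 libraries, labelled as biological replicates. The study's methods give 3 mice a group, each with a wound on both sides of the back. The methods also have mice killed on days after day 4, and how many mice of a group gave tissue on day 4 is not stated. Whether libraries of a group came from separate mice is not stated either. The main tests and the permutation tests treated the libraries as independent. Within groups, the counts of 7.4-GelMA/bFGF replicates 1 and 2 differed least (chi-square per degree of freedom 16.7). Against replicate 3 these had 246 and 256. The authors deposited a table of read counts per gene and a table of FPKM for each sample. The submitters' processing notes name genome build GRCm39, while the aligner, counter, annotation, strand setting and treatment of shared reads are not given in the sources used here. The deposited FPKM values matched the deposited counts divided by a constant length for 14938 genes (within 0.01%). No column lacked a sample (0).

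Counts were tested with edgeR 4.0.16 (R 4.3.3; TMM, quasi-likelihood test, filterByExpr by group) and p-values were adjusted by Benjamini-Hochberg over all genes tested. A call needed an adjusted p below 0.05 and, except among the 7 groups, a log2 fold change beyond 0.58 either way. Comparisons with control, among all groups and over all pH used 21 libraries, and the others the 6 libraries compared. Scripts were tested on simulated data. Single genes were also compared between the 3 control and 18 hydrogel libraries with exact two-sided permutation tests over 1330 splits (smallest p 0.000752, scipy 1.17.1, Python 3.11.15). These p-values are not adjusted for the number of genes. Correlations used log2 CPM with a prior count of 2 and 100000 resamples. Alternatives were DESeq2 1.42.0, limma 3.58.1 on log2 FPKM with a pseudocount of 1 or 0.1, for genes averaging 1 FPKM or more or for all genes, RLE scaling, no filter or at least 10 counts in every library, a replicate block, no fold threshold, single libraries left out and the 3 libraries with genes of other tissues left out.

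The mast cell genes and all lists were chosen with earlier results of these data known. Named were the 9 genes in full, genes of the related lists that were called or were the 2 most abundant of a list, and the 10 genes most like the 9 in pattern, of which 1 is not reported here. Symbols were matched to RefSeq names (GRCm38.p6) for 18662 of 18806 genes, 9 of 9 mast cell genes among them. Depth of 34362558 to 37817833 counts puts 3 counts at 0.0793 to 0.0873 CPM, which covers counting error only.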

Additional observations from a re-analysis of the deposited data

How the results depend on the processing

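Among the 7 groups the number of genes called, 18 by edgeR, was 2050 by DESeq2, 10 with a replicate block and 3 without the libraries with genes of other tissues. For the hydrogels against control it was 1, and 2 without a fold threshold, 170 by DESeq2, 5 with at least 10 counts in every library, 2 with a replicate block and 0 without the libraries with genes of other tissues. For aFGF against bFGF over all pH it was 506, and 1702 without a fold threshold, 773 by DESeq2, 403 with a replicate block, 212 by limma on log2(FPKM + 1) and 191 by the same without a filter. At pH 6.4, DESeq2 called 118. At pH 7.4 the count was 268 by DESeq2, 1 by limma on log2(FPKM + 0.1), 1 without the libraries with genes of other tissues and 12 in the fit over 21 libraries. At pH 8.4, where edgeR tested 15041 genes, DESeq2 called 955 genes. Of the listed mast cell genes 1 was among them, Hdc, and which cells its RNA came from was not tested. The count there was 0 with a replicate block, 0 without the libraries with genes of other tissues and 10 in the fit over 21 libraries. DESeq2 called 20 and 113 genes for pH 6.4 against 7.4 with aFGF and bFGF, and 13 and 28 for pH 8.4 against 7.4. The cause of these differences was not tested.

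Leaving out each library in turn, the counts ranged from 7 to 864 among the 7 groups, 0 to 1189 for the hydrogels against control (mast cell genes 0 to 2), 269 to 714 for aFGF against bFGF over all pH, 0 to 1 at pH 7.4, 0 to 172 at pH 8.4 and 0 to 278 for pH 6.4 against 7.4 with bFGF. The 864, 1189 and 2 came without control replicate 2, and the 2 were Hdc and Cma1. The fitted log2 fold change against control ranged from -0.24 to 0.10 for Kit, -0.32 to 0.10 for Fcer1a and -0.10 to 3.12 for Hdc. Leaving out each control, a choice made after the data were seen, the difference in mean log2 CPM ranged from -0.82 to -0.46 for Cma1, -0.77 to -0.60 for Mcpt4, -0.64 to -0.32 for Tpsb2, -0.29 to 0.046 for Kit, -0.33 to 0.075 for Fcer1a, 0.53 to 3.27 for Hdc and -1.43 to -1.07 for Mrgprb2.

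Same-numbered libraries of different groups did not pair: their deviations from group means correlated with r of -0.64 to 0.42 (mean -0.02), over 0.1 in 14 of 63 pairs. With the replicate block no mast cell gene was called in any comparison. The block ended the calls of Mcpt2 and Il33 between the growth factors (adjusted p of 0.0558 and 0.0703). Ms4a2 and Mrgprb2 rest on few counts.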
